A study of Mus musculus with 28 samples.

Results

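Regions of open chromatin that set Pax7-GFP cells apart from the unsorted culture of the same day are described here, in mouse fibroblasts turned towards a muscle stem cell fate. The groups compared were Dox+FRG day 8 GFP cells (2 libraries) and unsorted Dox+FRG day 8 cells (2 libraries). A region was GFP-only where both GFP libraries and neither unsorted library had a peak in it, and unsorted-only in the reverse case. There were 2685 GFP-only and 9986 unsorted-only regions, 12671 in all, of 253225 regions made from the peak lists of 28 libraries. Of the 52129 regions called in both libraries of at least 1 of these groups (the tested regions), 5.15% were GFP-only and 19.2% unsorted-only.

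Both groups were MEF14 cells, fibroblasts of E13.5 mouse embryos that carried Rosa-rtTA, a Col1a1-tetO-MyoD transgene and the Pax7-nGFP reporter, so that doxycycline turned on MyoD in every MEF14 group that received it. Dox stands for 2 μg/ml doxycycline, and FRG was read as 5 μM forskolin, 5 μM RepSox and 3 μM CHIR99021, a GSK3β inhibitor. The Dox, FRG and Dox+FRG groups of MEF14 cells were all in medium with 10 ng/ml basic FGF. The genotype of the MEF10 cells and the meaning of MN are not given in the labels. The GFP label was read as cells taken by the Pax7 reporter and its absence as an unsorted culture, which may itself hold Pax7-GFP cells, since the labels do not describe the sort. The other groups, each with 2 libraries, were used here as readouts that had no part in choosing the regions. They included Dox+FRG day 10 GFP cells, unsorted Dox+FRG cells of days 2, 4 and 6, and day 0 fibroblasts. Cells with doxycycline and without the small molecules (Dox) were of days 4 and 8. Cells with the small molecules and without doxycycline (FRG) were of day 8. The rest were MEF10 cells at day 6 with the labels MyoD+FRG or MN+FRG, and quiescent and activated satellite cells. Satellite cells came from Pax7-nGFP mice aged 10 to 12 weeks. The labels leave unsaid whether a group's 2 libraries are from different cultures or mice, and the spread that p-values rest on may be technical.

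Pax7 is a transcription factor of satellite cells, the resident stem cells of muscle, which rest beneath the sheath of the muscle fibre and divide after injury. MyoD, a basic helix-loop-helix factor, binds E-boxes, opens chromatin at muscle genes and drives differentiation; in satellite cells it comes on with activation, and quiescent cells hold little of it. Forskolin raises cyclic AMP, RepSox blocks the TGF-β type I receptor, and CHIR99021 stabilises β-catenin. ATAC-seq lists places where a transposase reaches the DNA, such as active promoters and enhancers.

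The lists were short on the GFP side. Day 8 GFP libraries had 47002 and 43467 peaks, against 67026 and 50608 in unsorted day 8 cells. The unsorted replicate 1 list was the longest of these lists, and among the 4 libraries, GFP replicates 1 and 2 called 2713 and 1987 regions alone, against 13159 and 2161 in unsorted replicates 1 and 2. All 4 libraries called 31731 regions. Just outside the GFP-only rule, 3110 regions had both GFP libraries and unsorted replicate 1, and 631 had both GFP libraries and unsorted replicate 2. Just outside the unsorted-only rule, 2723 regions had both unsorted libraries and GFP replicate 1, and 1263 had both and GFP replicate 2. In the day 8 lists most peaks share 1 width, the most common one. A wider peak was present at 3.31% and 2.64% of GFP-only regions in the GFP libraries and at 6.62% and 3.03% of unsorted-only regions in the unsorted libraries, where regions called in all 4 libraries had 10.8% and 8.05% in GFP and 14.5% and 9.89% in unsorted libraries. A region missing from the list of a mixed culture may be open in few of its cells or less open in many, and the lists cannot tell these apart.

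The member counts depended on the libraries used, and under the rule leaving a library out can only add members. With unsorted replicate 1 left out, 5795 regions were GFP-only. These include the 3110 regions that both GFP libraries and unsorted replicate 1 called. With GFP replicate 1 or GFP replicate 2 left out there were 4672 and 5398 GFP-only regions. With unsorted replicate 2 left out, 23145 regions were unsorted-only. When peaks of a list's most common width were dropped, 305 regions were GFP-only and 935 unsorted-only. Unsorted-only regions outnumbered GFP-only ones in each of these settings.

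Of the GFP-only regions, most were called again at day 10 and few at any day of the unsorted course. Day 10 GFP libraries called 85.0% and 88.6% of them. Unsorted libraries called 23.7% and 15.1% at day 2, 22.3% and 9.76% at day 4 and 15.1% and 16.8% at day 6, and day 0 fibroblasts 21.5% and 21.7%. Every unsorted library of days 2 to 6 was thus below every day 10 GFP library by more than 60 percentage points. Over all tested regions, members included, the mean was 86.1% ± 0.875 at day 10 GFP (SD, n = 2). Unsorted cells of days 2, 4 and 6 had 62.6% ± 5.75, 79.2% ± 8.12 and 86.9% ± 0.0746 (SD, n = 2 each). Regions called in all 4 day 8 libraries had means of 99.5% at day 10 GFP and 80.6%, 90.2% and 95.9% at those days. Coverage thus differed between the lists, and its part in the gap was not tested. Both day 10 GFP libraries called 2153 of the 2685 GFP-only regions, and 177 were called in neither. Choosing GFP-only regions without unsorted day 8 replicate 1 adds regions called in that library. GFP-only regions so chosen had a mean share called of 91.2% in day 10 GFP cells. Their means were 33.1% in day 0 fibroblasts and 30.5%, 32.9% and 38.8% in unsorted cells of days 2, 4 and 6. The low values thus moved by more than 1.5 times with that library and stayed below the day 10 GFP value.

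Unsorted-only regions were called at a low share until day 2 and a high one from day 4. Unsorted-only regions were called at 34.9% and 26.4% by the day 2 libraries, at 82.7% and 68.1% by the day 4 libraries and at 88.7% and 88.0% by the day 6 libraries, after 36.3% and 35.0% in day 0 fibroblasts. Day 10 GFP libraries called 36.8% and 41.0%. The groups did not overlap between days 2 and 4, and both day 10 GFP libraries were below every library of days 4 and 6. Over all tested regions the means for days 0, 2, 4 and 6 were 60.2%, 62.6%, 79.2% and 86.9%, so these were also higher from day 4, by a smaller step. Day 10 GFP lists held 61575 and 64947 peaks and day 6 lists 64823 and 65516, so list length differed little between those groups. Of the 9986 unsorted-only regions, 3010 were called in both day 10 GFP libraries and 5231 in neither.

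**Figure D1:**
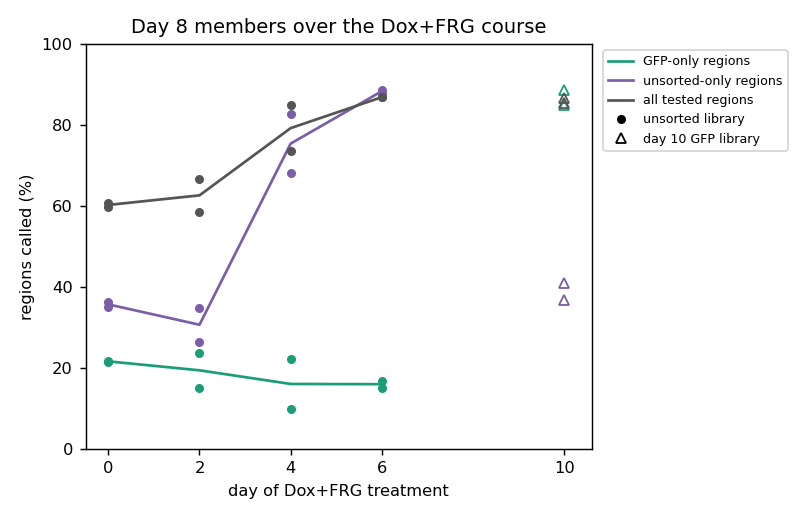
Share of GFP-only, unsorted-only and all tested regions called (vertical axis, percent) by day of Dox+FRG treatment (horizontal axis), with filled points for unsorted libraries, lines through their means and open triangles for day 10 GFP libraries. GFP-only regions were at 85.0% and 88.6% in day 10 GFP cells and between 9.76% and 23.7% in unsorted libraries, while unsorted-only regions averaged 30.6% at day 2 and 75.4% at day 4.

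The members also differed in when they were first called. Among unsorted-only regions, 3170 (31.7%) were called in both day 0 libraries, 561 (5.62%) first in both libraries of day 2, 3418 (34.2%) first at day 4 and 1687 (16.9%) first at day 6. Only 244 (2.44%) were called in no library of days 0 to 6. Among GFP-only regions, 1465 (54.6%) were called in no library of days 0 to 6, and 476 (17.7%) in both day 0 libraries. Both day 0 libraries called 56.8% of all tested regions. Of the regions called in all 4 day 8 libraries, 71.2% were called in both day 0 libraries and 1.07% in no library of days 0 to 6. Of all GFP-only regions, 1129 (42.0%) were called in both day 10 GFP libraries and in no library of days 0 to 6. Of the 476 fibroblast regions, 416 were called again in both day 10 GFP libraries and 227 in neither unsorted day 6 library.

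A comparison made wholly of other libraries, day 10 GFP against unsorted day 6, separated the members in the same directions. Of the 67728 regions that either group called in both of its libraries, 13.2% were called in both day 10 GFP and neither day 6 library, and 15.1% in the reverse pattern. Of the 2177 GFP-only regions among them, 1610 (74.0%) were called in both day 10 GFP and neither day 6 library and 8 (0.367%) the other way. Of the 8676 unsorted-only regions, 144 (1.66%) were called in both day 10 GFP and neither day 6 library and 4257 (49.1%) the other way. For the 31667 regions called in all 4 day 8 libraries, the shares were 1.87% and 0.101% in the same order. The share of 74.0% was 46.7% with the GFP-only regions chosen without unsorted day 8 replicate 1, which adds regions called in it.

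Quiescent satellite cells shared more of the GFP-only than of the unsorted-only regions, and activated satellite cells the reverse. Quiescent libraries called 41.9% and 28.6% of GFP-only and 22.6% and 11.5% of unsorted-only regions. Activated libraries called 19.2% and 24.3% of GFP-only and 47.6% and 56.2% of unsorted-only regions. Both quiescent libraries called a larger share of GFP-only regions than both activated libraries did, and both activated libraries a larger share of unsorted-only regions than both quiescent ones. Chosen without unsorted day 8 replicate 1, GFP-only regions were called at 39.3% ± 12.2 in quiescent and 30.4% ± 4.72 in activated cells (SD, n = 2 each), and the libraries of these groups then overlapped. All of these shares were under those of the tested regions as a whole, which averaged 56.8% ± 9.31 in quiescent and 65.9% ± 4.20 in activated cells (SD, n = 2 each).

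By class, 383 GFP-only regions (14.3%) were called in both quiescent and neither activated library, 127 (4.73%) in both activated and neither quiescent library, 257 (9.57%) in all 4 satellite cell libraries and 1290 (48.0%) in none. Unsorted-only regions numbered 252 (2.52%), 3085 (30.9%), 761 (7.62%) and 3493 (35.0%) in the same classes. The tested regions were at 5.63%, 13.1%, 40.2% and 18.1%. Between the satellite cell groups themselves, 16.4% of 56016 regions were quiescent-only and 26.2% activated-only. Restricted to regions that a satellite cell group called in both of its libraries, 41.3% of 928 GFP-only regions were quiescent-only and 13.7% activated-only, while 5.22% of 4827 unsorted-only regions were quiescent-only and 63.9% activated-only. Under the same restriction, 5.86% of 26619 regions called in all 4 day 8 libraries were quiescent-only and 9.85% activated-only. Both activated libraries called 4459 unsorted-only regions in all, of which 2182 were called in neither day 0 library. Of the regions called in both activated and neither quiescent library, 1669 were called in neither day 10 GFP library. Both day 10 GFP and both quiescent libraries called 698 GFP-only regions (26.0%). Regions seen in both day 0 libraries and no satellite cell library made up 3.20% of GFP-only, 5.26% of unsorted-only and 2.91% of tested regions.

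**Figure D2:**
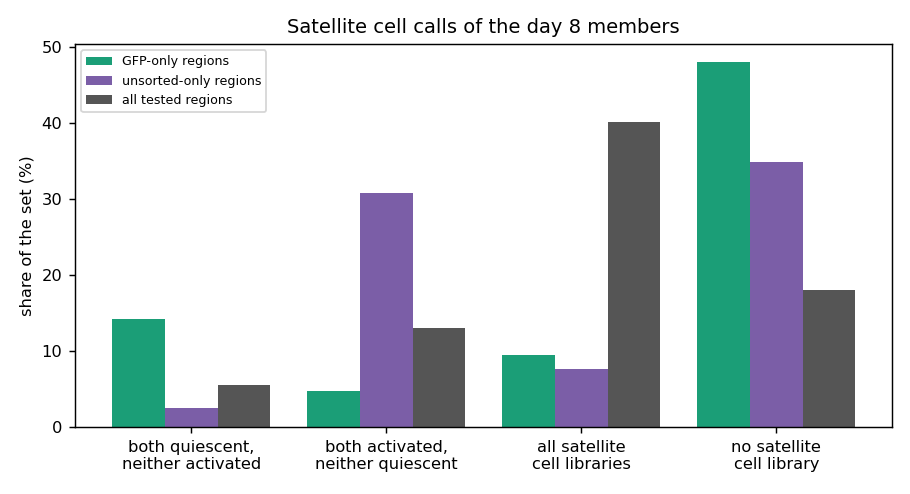
Share of GFP-only, unsorted-only and all tested regions (vertical axis, percent) in 4 classes of satellite cell calls (horizontal axis). GFP-only regions were called in quiescent and not activated cells at 14.3% and the reverse at 4.73%, and unsorted-only regions at 2.52% and 30.9%.

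Unsorted-only regions were called in Dox cells about as often as all tested regions, and in FRG cells less often. Dox libraries called 86.3% and 89.1% of unsorted-only regions at day 4 and 87.5% and 91.9% at day 8, where all tested regions averaged 86.5% and 89.0%. FRG libraries, whose label names no doxycycline, called 46.4% and 46.2%, where all tested regions averaged 70.9%. Their lists held 134997 and 133267 peaks, and those of Dox day 8 held 108663 and 130916. The most common peak width was 61 and 63 bp in the FRG lists and 82 and 88 bp in those of Dox day 8. Treatment, list length and peak width thus cannot be told apart between Dox and FRG cells. All 4 Dox libraries called 8027 of the 9986 unsorted-only regions, and 4247 were called in both Dox day 8 and neither FRG library. Of the 6031 unsorted-only regions called in neither day 0 library, 4920 were called in both Dox day 8 libraries. All libraries of unsorted days 4 and 6 and of Dox day 8 called 3014 of these, and 1693 of the 3014 were called in neither day 10 GFP library. Both Dox day 8 libraries but no satellite cell library called 2501 unsorted-only regions (25.0%).

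GFP-only regions were called less often than all tested regions in both Dox groups and in FRG cells. They were called at 25.4% and 29.5% by Dox day 4, 32.9% and 43.1% by Dox day 8 and 40.3% and 40.0% by FRG libraries, so the Dox day 8 and FRG values overlapped, whereas all tested regions averaged 86.5%, 89.0% and 70.9% in these groups. Chosen without unsorted day 8 replicate 1, their means were 48.4% at Dox day 4, 56.7% at Dox day 8 and 51.9% in FRG cells, with Dox day 8 above FRG. In the comparison of Dox day 8 with FRG day 8, 22.3% of 151689 regions were Dox-only and 29.0% FRG-only. Among the 1309 GFP-only regions in it, 19.9% were Dox-only and 23.8% FRG-only. Among the 9049 unsorted-only regions, 46.9% were Dox-only and 2.13% FRG-only. In all, 273 GFP-only regions were called in both FRG libraries and no Dox library, and 990 (36.9%) in no Dox and no FRG library. Of the 476 GFP-only regions of day 0 fibroblasts, 415 were called in both FRG libraries.

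**Figure D3:**
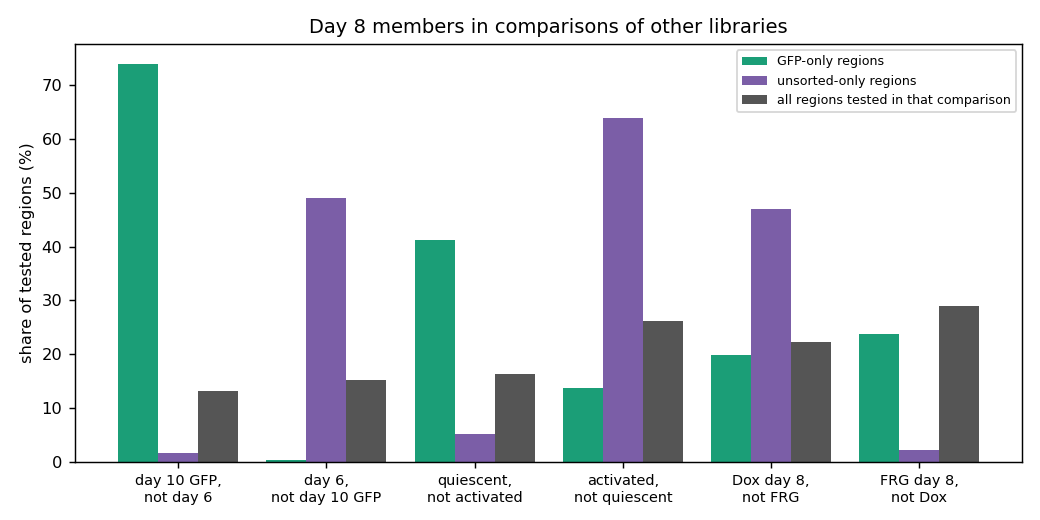
Share of regions (vertical axis, percent) called in both libraries of the first group named and neither of the second (horizontal axis), for GFP-only regions, unsorted-only regions and all regions tested in that comparison. GFP-only regions stood at 74.0% for day 10 GFP and not day 6 and at 41.3% for quiescent and not activated cells, and unsorted-only regions at 63.9% for activated and not quiescent cells.

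MEF10 libraries gave a mixed readout. MN+FRG libraries called 29.5% and 30.8% of GFP-only and 50.8% of unsorted-only regions in each library, where all tested regions averaged 71.7%. The MyoD+FRG libraries called 5.51% and 34.8% of GFP-only and 39.9% and 86.7% of unsorted-only regions, from lists of 37301 and 91401 peaks, so the MyoD+FRG libraries lay on both sides of the MN+FRG ones. These lists also differed in peak width, the most common width being 155 bp in MyoD+FRG replicate 1 and 500 bp in replicate 2. Their widest peaks were 2866 and 202465 bp, and they covered 7.85 and 92.9 Mb. All tested regions were called at 54.7% and 87.8% by the MyoD+FRG libraries, so replicate 2 called unsorted-only regions about as often as tested ones. Chosen without unsorted day 8 replicate 1, GFP-only regions were called at a mean of 32.4% in MyoD+FRG cells, against 20.2% with it.

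The balance of both sets in a library was summarised as the log2 ratio of the share of GFP-only to the share of unsorted-only regions called. The ratio takes out list length only where length acts alike on both sets. It was 1.21 and 1.11 in day 10 GFP and 0.89 and 1.32 in quiescent satellite cell libraries. It was -0.56 and -0.81 in unsorted cells at day 2, -1.89 and -2.80 at day 4, and -2.55 and -2.39 at day 6. Dox libraries were at -1.76 and -1.60 at day 4 and -1.41 and -1.09 at day 8. The ratio was above 0 in every day 10 GFP and quiescent library and below 0 in every other one. Activated satellite cells were at -1.31 and -1.21, day 0 fibroblasts at -0.76 and -0.69, FRG at -0.21 in each library, MyoD+FRG at -2.86 and -1.32 and MN+FRG at -0.78 and -0.72. Quiescent replicate 2, the highest, had 37910 peaks and MyoD+FRG replicate 1, the lowest, had 37301. In each group but day 0 fibroblasts, the library with fewer peaks had the ratio of larger size. At day 4 it was -1.89 with 70877 peaks and -2.80 with 51536. The ratio was thus not shown to be free of list length, and a role of length was not tested.

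Against unsorted Dox+FRG days 2 to 6, the day 10 GFP and quiescent libraries were higher by 2.97 on the log2 scale, with means of 1.13 ± 0.181 (SD, n = 4) and -1.83 ± 0.943 (SD, n = 6; two-sided exact permutation test, p = 0.00952, its smallest possible value, adjusted p = 0.0190 over 2 tests). Against Dox days 4 and 8 they were higher by 2.60, with means of 1.13 ± 0.181 and -1.47 ± 0.288 (SD, n = 4 each; two-sided exact permutation test, p = 0.0286, its smallest possible value, adjusted p = 0.0286). All 4 day 10 GFP and quiescent libraries were above all libraries they were set against. The groups in these tests were chosen with earlier results of these data known, and activated satellite cells were not among them. Each library was 1 unit in the permutations, although the libraries of a group share its condition. With group means as units, 5 in the first comparison and 4 in the second, the differences were again 2.97 and 2.60 and were not tested. The second test did not pass when any 1 of its 8 libraries was left out (adjusted p = 0.0571 in each case, exact permutation test), and it had an adjusted p of 0.0556 with the replicate numbers as a block, in each case the smallest value possible. The most common peak width was 172 to 184 bp in the day 10 GFP and quiescent lists and 160 to 205 bp in the unsorted lists of days 2 to 6. It was 78 to 88 bp in the Dox lists. Day 10 GFP and quiescent lists held 37910 to 64947 peaks and Dox lists 89871 to 130916. In the second test, width setting, list length and group thus cannot be told apart.

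**Figure D4:**
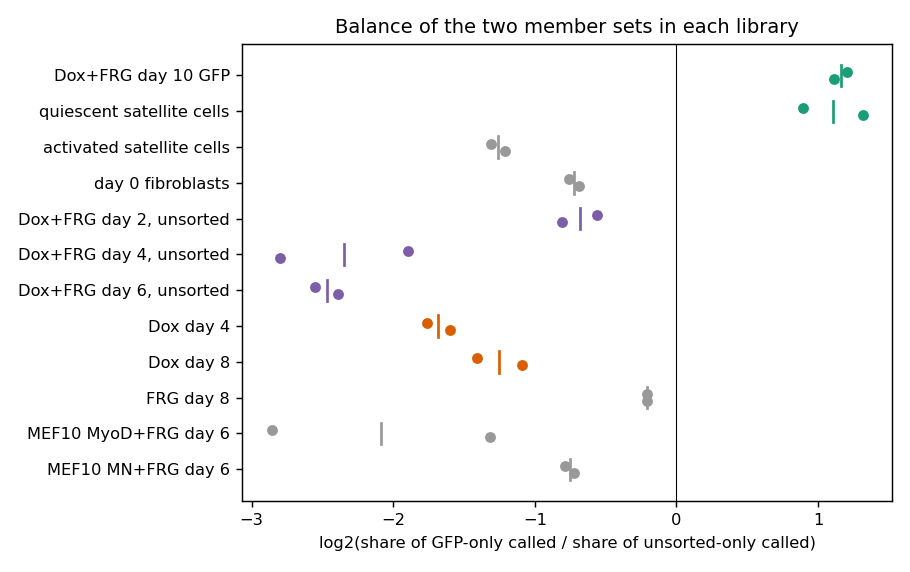
Log2 ratio of the share of GFP-only to the share of unsorted-only regions called (horizontal axis) in each library of the 12 groups that did not define the regions (vertical axis), with points for libraries and short lines for group means; green, purple and orange groups entered the tests. Day 10 GFP and quiescent libraries lie between 0.89 and 1.32 and the others between -2.86 and -0.21.

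Members called again at day 10 were called more often in satellite cells than those that were not, and also in other groups. Of the 2153 GFP-only regions called in both day 10 GFP libraries, 47.5% and 33.3% were called in the quiescent libraries and 21.6% and 27.5% in the activated ones. Of the 177 called in neither, 11.9% and 8.47% were called in quiescent and 8.47% and 10.2% in activated libraries. The GFP-only regions called in both day 10 GFP libraries also had higher means than those called in neither in the other groups, with 23.3% against 10.7% in day 0 fibroblasts, 41.1% against 19.8% in Dox day 8, 42.5% against 22.3% in FRG and 31.6% against 17.8% in MN+FRG cells. Of the 5231 unsorted-only regions absent from both day 10 GFP libraries, quiescent libraries called 9.94% and 4.44% and activated libraries 41.0% and 49.6%. Of the 3010 called in both day 10 GFP libraries, quiescent libraries called 42.6% and 23.6% and activated libraries 58.1% and 66.0%. The unsorted-only regions that day 10 GFP cells called were also called more often in day 0 fibroblasts, at 49.1% and 47.7%, than those that they did not call, at 27.3% and 26.1%.

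GFP-only regions were called in fewer libraries than unsorted-only ones. The median GFP-only region was called in 6 of the 24 libraries outside the rule (quartiles 3 and 11), the median unsorted-only region in 13 (quartiles 10 and 18) and the median tested region in 20. Those libraries include more of unsorted Dox+FRG and Dox cells than of GFP cells from culture, and the part of this make-up in the medians was not tested. No other library called 79 GFP-only (2.94%) and 43 unsorted-only (0.431%) regions. Some members recurred in day 10 GFP cells and in few other groups. Both day 10 GFP libraries, but no satellite cell library and no library of days 0 to 6, called 588 GFP-only regions (21.9%), and 374 of these were called in no Dox and no FRG library either.

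**Figure D5:**
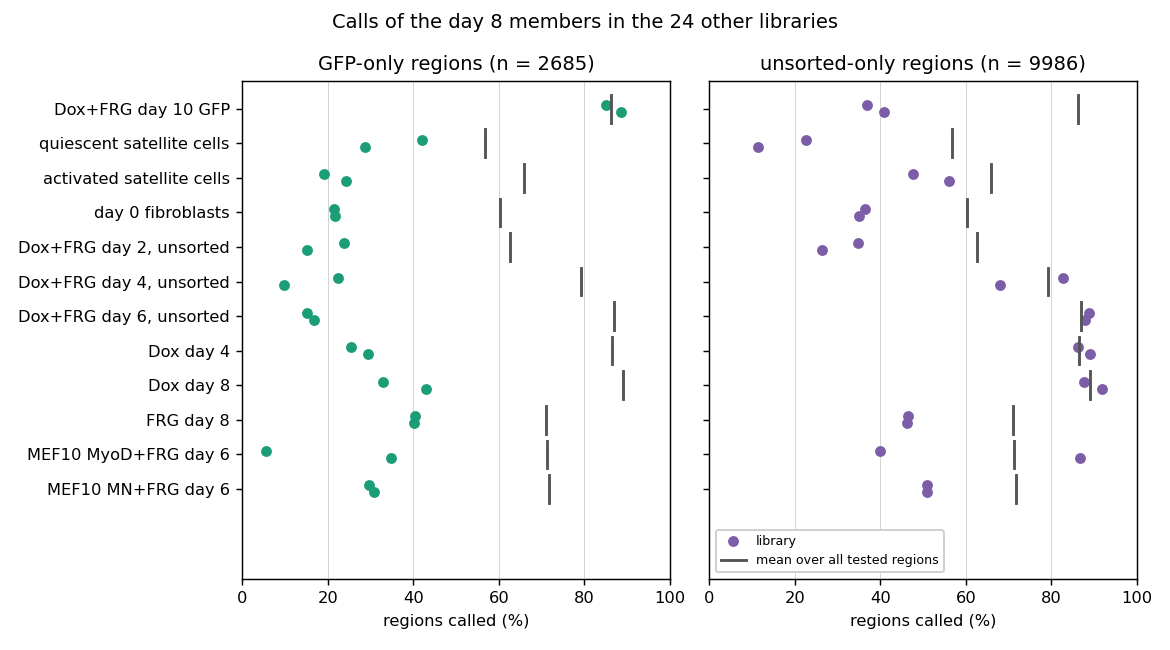
Share of the 2685 GFP-only (left) and 9986 unsorted-only (right) regions called (horizontal axes, percent) in each of the 24 libraries outside the rule, by group (vertical axis), with grey lines for the mean over all tested regions. GFP-only regions reach the tested mean in day 10 GFP cells alone, and unsorted-only regions come within 4 percentage points of it at day 4, day 6 and in both Dox groups.

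Individual regions were picked by call pattern, so their calls in the groups that the pattern names were set by the choice. The first pattern was a call in both day 10 GFP and both quiescent libraries and in no library of days 0 to 6. It held for 302 GFP-only regions (11.2%), of which the 5 with the widest peaks are given, in mm9 positions. The widest lay on chromosome 16 from 40982389 to 40983502, with peaks of 885 and 803 bp in day 8 GFP, 875 and 172 bp in day 10 GFP and 871 and 934 bp in quiescent libraries. No other library of the 28 had a peak there. A region on chromosome 7 from 143721956 to 143723283 had peaks of 1217 and 182 bp in day 8 GFP, 1288 and 1255 bp in day 10 GFP and 180 and 172 bp in quiescent libraries, and one on chromosome 16 from 78812178 to 78812997 had 690 and 621 bp, 184 and 644 bp, and 180 and 172 bp in the same groups. These regions, too, were called in those 6 libraries alone. The region on chromosome 7 from 96848186 to 96849591 was called in 10 libraries, the additional ones being both FRG and both MN+FRG libraries, with FRG peaks of 932 and 674 bp. The region on chromosome 5 from 118323910 to 118324625 was called in 12 libraries, activated satellite cells, Dox day 8 and FRG included.

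Another such pattern held by choice for 1295 unsorted-only regions (13.0%). It required calls in both libraries of days 4 and 6 and of activated satellite cells, and none in day 10 GFP or quiescent libraries. The widest of these regions lay on chromosome 14 from 13745693 to 13748743. Its peaks were 1954 and 1077 bp wide in unsorted day 8 cells, after 1851 and 1834 bp at day 4 and 1924 and 1806 bp at day 6. Day 0 libraries had 615 and 652 bp there and day 2 libraries no peak, so the region was called at day 0, not at day 2 and again from day 4. The region on chromosome 11 from 19941779 to 19944305 had the same order, with 1084 and 1137 bp at day 0, none at day 2 and 1148 and 1321 bp at day 4. The region on chromosome 16 from 31208380 to 31210756 was called at neither day 0 nor day 2, and had peaks of 178 and 172 bp at day 4, 172 and 1964 bp at day 6 and 1914 and 1103 bp in unsorted day 8 cells. The remaining regions, on chromosome 16 from 34860767 to 34862761 and on chromosome 19 from 47354788 to 47357978, were called in 22 and 21 of the 28 libraries, with activated peaks of 1193 and 1330 bp in the first and 922 and 958 bp in the second. Each of these 5 regions had a peak in all Dox and FRG libraries.

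Both kinds of members were spread over all chromosomes. GFP-only regions made up from 4.31% of tested regions on chromosome 17 to 7.27% on chromosome 3. Unsorted-only regions made up from 15.0% on chromosome X to 21.2% on chromosome 13. Of the GFP-only regions, 17.2% had another GFP-only region as the next tested region on either side, while 9.48% of the other tested regions lay beside a GFP-only one. Of the unsorted-only regions, 42.9% had another as neighbour, while 31.8% of the other tested regions lay beside an unsorted-only one.

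Unsorted-only regions were counted in 100 kb windows. The counts were not set against those that their share of tested regions (19.2%) would give, so gathering was not tested. In 33 of 3897 windows with at least 5 tested regions, 5 or more were unsorted-only, and the highest count was 8. That window lay on chromosome 2 from 119900001 to 120000000, with 8 of 12 tested regions. The windows named were picked for such counts, which favours calls in unsorted day 8 over day 8 GFP libraries there. In this window day 8 GFP libraries called 3 and 5 regions and unsorted day 8 libraries 14 and 11, while day 10 GFP libraries called 11 and 10. On chromosome 9 from 71200001 to 71300000 all 7 tested regions were unsorted-only. Day 8 GFP libraries called 0 regions in this window, day 10 GFP libraries 1 and 1, and unsorted day 8 libraries 9 and 8. Before that, 2 and 3 were called at day 0, 0 at day 2, 3 and 3 at day 4 and 7 and 8 at day 6. Quiescent satellite cells called 3 and 1 and activated cells 2 and 1, so this window did not share the pattern of activated cells. The window on chromosome 16 from 11600001 to 11700000 did, with 7 of 7 tested regions unsorted-only. Quiescent satellite cells called none of its regions and activated cells 9 and 10, day 10 GFP libraries 3 and 4, and day 8 GFP libraries none against 9 and 7 in unsorted day 8 cells. On chromosome 1 from 133300001 to 133400000, 7 of 8 tested regions were unsorted-only. Day 8 GFP libraries called 1 and 1 regions there and day 10 GFP libraries 2 and 2, against 10 and 9 in unsorted day 8 cells and 18 and 17 in Dox day 8 cells. On chromosome 9 from 40900001 to 41000000, 7 of 9 were unsorted-only, and day 10 GFP libraries called 8 and 8 regions against 3 and 3 at day 8 GFP.

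GFP-only regions had lower counts, with at most 5 in a window and 3 or more in 23 windows. They were also fewer, at 5.15% of tested regions against 19.2% for unsorted-only ones. Window counts were not set against those that these shares would give. The window with 5 lay on chromosome 7 from 6700001 to 6800000 and also held 3 unsorted-only regions, among 17 tested ones. Day 8 GFP libraries called 14 and 14 regions in it, against 13 and 12 in unsorted day 8 cells, so which regions were called differed there more than how many. Windows with 3 GFP-only regions of 5 tested lay on chromosome 2 from 133200001 to 133300000, on chromosome 6 from 139800001 to 139900000, and on chromosome 7 from 96800001 to 96900000 and from 144400001 to 144500000. These windows were picked for their GFP-only counts, which favours calls in day 8 GFP over unsorted day 8 libraries there. In the chromosome 6 window, day 8 GFP libraries called 6 and 5 regions and unsorted day 8 libraries 4 and 2. Quiescent libraries called 9 and 5 regions there, against 2 and 3 in activated satellite cells. In the first chromosome 7 window of these, day 10 GFP libraries called 8 and 7 regions and quiescent libraries 8 and 3, against 1 and 3 in activated and 3 and 3 in unsorted day 8 libraries. That window holds the region at 96848186 described above. FRG libraries called 10 and 10 regions there.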

How the data were processed

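ATAC-seq was made from 60000 cells per reaction with 13 PCR cycles and fragments of 100 to 1000 bp, per the labels' protocols. Each deposited list gives chromosome, start and end of the peaks of 1 library, other data than a count or signal, with no score. BWA, HOMER and the mm9 build are named in the submitters' processing notes. The sources used here give no versions, threshold or read filters. Chromosome 1 positions reached 197068386. Depth is unknown from the lists, and intervals based on reads are not given.

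Regions are unions of peaks, from all 28 lists, that share 1 bp or more (Python 3.11.15, pandas 2.3.3), and a library called a region where it had a peak. Starts are printed counted from 1. The tested regions were those called in both libraries of either group compared. Shares are means ± SD over 2 libraries. The log2 ratio was compared by exact permutation (scipy 1.17.1) with Benjamini-Hochberg adjustment over 2 tests. The region building and the test were checked on simulated data. The regions and windows named follow a rule of call pattern and peak width, or of members per 100 kb with at least 5 tested regions. The members, tests and rules were chosen with earlier results of these data known.

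Counts at gene lists and motif shares had been planned and were not run: the gene and promoter tables at hand are for GRCm38.p6, and neither a sequence nor an annotation of mm9 was used here, so no gene is named for a region and no sequence is given. For the same reason marker genes could not check the labels. Same-numbered libraries did not deviate together: over 21 pairs of the groups tested the correlations of their deviations lay between -0.0435 and 0.0619. Alternatives were other merging and overlap rules, wider peaks, autosomes, a replicate block and each library left out.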

Additional observations from a re-analysis of the deposited data

Results flagged for a closer look

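The log2 ratio of GFP-only to unsorted-only shares was above 0 in both quiescent and below 0 in both activated satellite cell libraries with quiescent minus activated at 2.36, a difference that was not tested.

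Day 10 GFP and quiescent libraries lay 2.97 above unsorted Dox+FRG days 2 to 6 and 2.60 above Dox days 4 and 8 in that ratio. The ratio was above 0 against below 0 in every library. The groups set against each other were chosen with earlier results of these data known. Both differences passed the exact permutation test with libraries, not groups, as units (adjusted p = 0.0190 and 0.0286). The second lost its call with the replicate block (adjusted p = 0.0556, exact permutation test) and with any 1 of its 8 libraries left out (adjusted p = 0.0571, exact permutation test). Each is the smallest value its setting allows, so neither setting could have passed.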

How the results depend on the processing

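When peaks of a list's most common width were dropped, 305 regions were GFP-only and 935 unsorted-only. Day 10 GFP cells then called 66.9% of GFP-only and 30.5% of unsorted-only regions, and activated satellite cells 17.2% and 34.8%. Of the tested GFP-only regions, 64.9% were in day 10 GFP and not day 6 and 36.4% in quiescent and not activated cells. Of the tested unsorted-only regions, 51.2% were in day 6 and not day 10 GFP and 53.7% in activated and not quiescent cells, or 66.3% with regions merged from the 4 libraries compared. The cause of these shifts was not tested.

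With each day 8 library left out in turn, there were 3316 to 5795 GFP-only and 11249 to 23145 unsorted-only regions, a rise that the rule brings by construction. GFP-only regions were called at 72.6% to 91.2% in day 10 GFP, 30.2% to 39.3% in quiescent and 18.3% to 30.4% in activated cells. Unsorted-only regions were called at 30.3% to 50.0%, 15.3% to 22.8% and 37.5% to 52.6% there. The shares of tested regions were 46.7% to 71.9% (GFP-only in day 10 GFP, not day 6), 38.3% to 50.3% (unsorted-only, the reverse), 30.3% to 42.5% (GFP-only, quiescent and not activated) and 55.1% to 62.5% (unsorted-only, the reverse). Chosen without unsorted day 8 replicate 1, GFP-only regions were called at 33.1% at day 0, 30.5% at day 2, 32.9% at day 4, 38.8% at day 6, 48.4% in Dox day 4 and 32.4% in MyoD+FRG cells.

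The log2 difference from unsorted cells ranged from 2.00 to 3.22 with a library left out (exact permutation, adjusted p from 0.0190 to 0.0476). That from Dox cells ranged from 1.97 to 2.72, and its adjusted p was 0.0571 by exact permutation, the smallest 3 libraries against 4 allow, when any 1 of the 8 libraries that enter it was left out. With the replicate block the differences were 2.97 (adjusted p = 0.0400, exact permutation) and 2.60 (adjusted p = 0.0556, the smallest the blocked exact test allows). Replicate numbers were not shown to pair the libraries.

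In the 5 windows with most GFP-only regions no member was left among the wider peaks, and of the unsorted-only windows only that on chromosome 2 kept 2. Of the regions named, 3 of 5 GFP-only and 5 of 5 unsorted-only ones stayed members. The settings for windows, named regions and shares of tested regions were chosen after seeing the data. The differences in log2 ratio kept their sign in each setting. The order of some GFP-only shares turned: without unsorted day 8 replicate 1, Dox day 8 (56.7%) was above FRG (51.9%) and day 6 above day 0. With the wider peaks the MyoD+FRG mean (41.1% ± 47.1) was above that of MN+FRG (30.7% ± 0.696; SD, n = 2 each), with a large spread in MyoD+FRG. The lists give no depth, so a region without a peak was not shown to be closed.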
